A study of Mus musculus with 10 samples.

Results

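The delta protocadherins are among the protocadherin genes that lie alone in the genome rather than in the clustered array. The 10 described here were taken by symbol, 10 of the 54532 genes in the count files. They comprised the delta-1 genes Pcdh1, Pcdh7, Pcdh9 and Pcdh11x, the delta-2 genes Pcdh8, Pcdh10, Pcdh17, Pcdh18 and Pcdh19, and Pcdh20, which stands apart from both subfamilies. Polyadenylated RNA was sequenced from NeuN+ nuclei sorted from brains of adult C57BL/6J mice, 1 library for each of 10 samples. The 5 control libraries came from mice without Nestin-Cre, replicates 1 to 3 with Mphosph8 fl/fl and replicates 4 and 5 with Morc2a fl/fl. The 3 Mphosph8Δ/Δn and 2 Morc2aΔ/Δn libraries came from mice with the same floxed alleles and Nestin-Cre, in which exon 4 of the targeted gene is removed. Nestin drives Cre in progenitors of the nervous system, so that the deletion is not limited to neurons, and no library of mice with Cre alone was analysed here, so that an effect of Cre and one of the deletion cannot be told apart. The labels do not say how many brains entered a library, and p-values measure the spread between these libraries.

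Protocadherins are cadherin-superfamily adhesion molecules, and neurons use them to tell contacts apart during axon growth, dendrite sorting and synapse formation. The clustered genes are chosen in different combinations in single neurons and are kept under heterochromatin control, in which Mphosph8, a chromodomain protein of the HUSH silencing complex, and Morc2a, a chromatin-compacting ATPase, take part. The delta genes instead are each switched on in particular regions, layers and nuclei of the brain. Delta-1 proteins carry a tail motif that binds protein phosphatase 1, and several delta-2 proteins bind the WAVE complex, which nucleates branched actin. The comparison addressed whether relatives of the clustered genes outside the array moved with loss of either silencer.

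The 10 genes shared a gene structure that their symbols do not fix. In the GENCODE M21 annotation of GRCm38 each had a large coding exon, between 2147 bp in Pcdh19 and 3174 bp in Pcdh7, as did all 58 clustered protocadherins, whose largest coding exons were between 2316 and 2562 bp. Only 3.3% of 21918 protein-coding genes had a coding exon of at least 2000 bp, and the median of the largest coding exon was 339 bp. Unlike the 22 beta protocadherins, each of which has 1 exon in its longest coding transcript, the delta genes had between 3 and 7. Their spans ran from 4538 bp in Pcdh8 to 877270 bp in Pcdh9. Pcdh8, Pcdh9, Pcdh17 and Pcdh20 are on chromosome 14, Pcdh10 and Pcdh18 on chromosome 3, Pcdh11x and Pcdh19 on chromosome X and Pcdh7 on chromosome 5.

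Promoter sequences differed between the genes in CpG number. 4 windows are shown, of the gene with the lowest p and the lowest log2 fold change in Morc2aΔ/Δn nuclei (Pcdh20), of the next in order of p (Pcdh19), of a gene without such a difference (Pcdh17) and of the gene nearest to the threshold in Mphosph8Δ/Δn nuclei (Pcdh8). They are the 250 bases before the RefSeq start in GRCm38.p6, 5′ to 3′ on the strand of the gene, and capitals mark CpG dinucleotides.
Pcdh20, chr14:88471397-88471646, minus strand: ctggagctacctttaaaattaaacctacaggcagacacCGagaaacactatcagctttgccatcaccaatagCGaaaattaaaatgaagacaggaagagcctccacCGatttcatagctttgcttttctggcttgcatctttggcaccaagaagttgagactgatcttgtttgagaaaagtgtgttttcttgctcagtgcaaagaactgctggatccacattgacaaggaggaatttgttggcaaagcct
Pcdh19, chrX:133688994-133689243, minus strand: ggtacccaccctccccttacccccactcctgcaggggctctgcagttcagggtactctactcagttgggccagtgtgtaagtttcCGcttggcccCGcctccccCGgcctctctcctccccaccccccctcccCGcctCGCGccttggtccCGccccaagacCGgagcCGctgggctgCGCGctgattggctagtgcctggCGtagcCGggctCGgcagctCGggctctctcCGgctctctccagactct
Pcdh17, chr14:84443313-84443562, plus strand: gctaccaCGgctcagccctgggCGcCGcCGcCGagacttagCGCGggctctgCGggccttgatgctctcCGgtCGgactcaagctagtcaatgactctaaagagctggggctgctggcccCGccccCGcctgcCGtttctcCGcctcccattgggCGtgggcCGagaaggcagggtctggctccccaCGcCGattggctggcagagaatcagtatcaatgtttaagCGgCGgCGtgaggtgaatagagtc
Pcdh8, chr14:79771313-79771562, minus strand: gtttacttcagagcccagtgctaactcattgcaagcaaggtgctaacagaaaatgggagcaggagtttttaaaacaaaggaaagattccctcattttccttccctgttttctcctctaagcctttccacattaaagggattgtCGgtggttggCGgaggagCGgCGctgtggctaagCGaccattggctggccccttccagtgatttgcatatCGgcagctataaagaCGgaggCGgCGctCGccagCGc
The Pcdh20 window held 3 CpG and 42.4% GC. The Pcdh19 window held 16 CpG and 69.2% GC, the Pcdh17 window 21 CpG and 64.8% GC, and the Pcdh8 window 11 CpG and 51.2% GC. Of the other members with an entry, Pcdh7 held 7 CpG, Pcdh9 18 in each of its windows, Pcdh10 22 and Pcdh18 23. Over 32851 RefSeq windows the median was 6 CpG, and 37.8% held at most 3, the number in Pcdh20, while 17.9% held at least 20, as Pcdh10, Pcdh17 and Pcdh18 did. A CCAAT sequence on either strand was present in 7 of the 8 genes, all but Pcdh7, and in 33.8% of all windows. GGGCGG on either strand was present in Pcdh10, Pcdh17, Pcdh18 and Pcdh19, and in 32.7% of all windows. TATAAA on either strand was found in Pcdh8 alone among the 8, and in 12.4% of all windows. These are matches of letters and say nothing of factor binding.

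The libraries held between 6686038 and 10764555 counts. Rbfox3, which encodes NeuN, was present in all libraries at 150.0 to 304 CPM (counts scaled to the library size), and the summed level of 6 microglial markers was at most 33.5 CPM and that of 6 endothelial and mural markers at most 36.0 CPM. The 6 astrocyte markers summed to between 162 and 238 CPM, and 6 oligodendrocyte markers, led by Mbp, to between 545 and 967 CPM. Cerebellar granule cell markers set 3 libraries apart. Their sum was 510 CPM in control replicate 4, 283 CPM in Mphosph8Δ/Δn replicate 1 and 425 CPM in Mphosph8Δ/Δn replicate 2, against 79.9 to 128 CPM in the other 7, and values without these 3 libraries are given where they matter. Counts of the targeted genes cover all exons and do not test the removal of exon 4. Mphosph8 was at 37.2, 36.0 and 18.8 CPM in the Mphosph8Δ/Δn libraries against 32.2 to 49.0 CPM in control, and Morc2a was at 215 and 223 CPM in the Morc2aΔ/Δn libraries against 122 to 163 CPM in control (log2 fold change 0.64, edgeR adjusted p = 0.0916).

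All 10 delta protocadherins were detected in every library and passed the filter on low counts, with between 17 counts, for Pcdh1 in a Morc2aΔ/Δn library, and 1432 counts, for Pcdh10 in a control library. To compare levels between genes, CPM were divided by the length of the annotated exons. In control nuclei Pcdh9 was the highest at 12.5 ± 2.23 CPM per kb (SD, n = 5), followed by Pcdh8 at 10.4 ± 1.49 and Pcdh7 at 8.99 ± 1.70 CPM per kb. Pcdh10, Pcdh19, Pcdh20 and Pcdh17 followed closely, with 7.24 ± 1.04, 7.19 ± 1.38, 7.07 ± 1.39 and 6.24 ± 0.728 CPM per kb. From Pcdh9 to Pcdh17 the library ranges of each gene and the next overlapped. Within libraries Pcdh9 was nevertheless above Pcdh8 in 5 of 5 and Pcdh7 above Pcdh10 in 5 of 5, while Pcdh8 was above Pcdh7 in 4 of 5, and Pcdh10, Pcdh19 and Pcdh20 were each above the next gene in 3 of 5. Below them the ranges were separate, for Pcdh11x at 4.52 ± 0.280, Pcdh18 at 2.88 ± 0.801 and Pcdh1 at 0.50 ± 0.192 CPM per kb. The order depends on the length used. With the longest transcript of each gene Pcdh10 came first at 14.0 CPM per kb and Pcdh9 second at 13.03 CPM per kb.

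**Figure D1:**
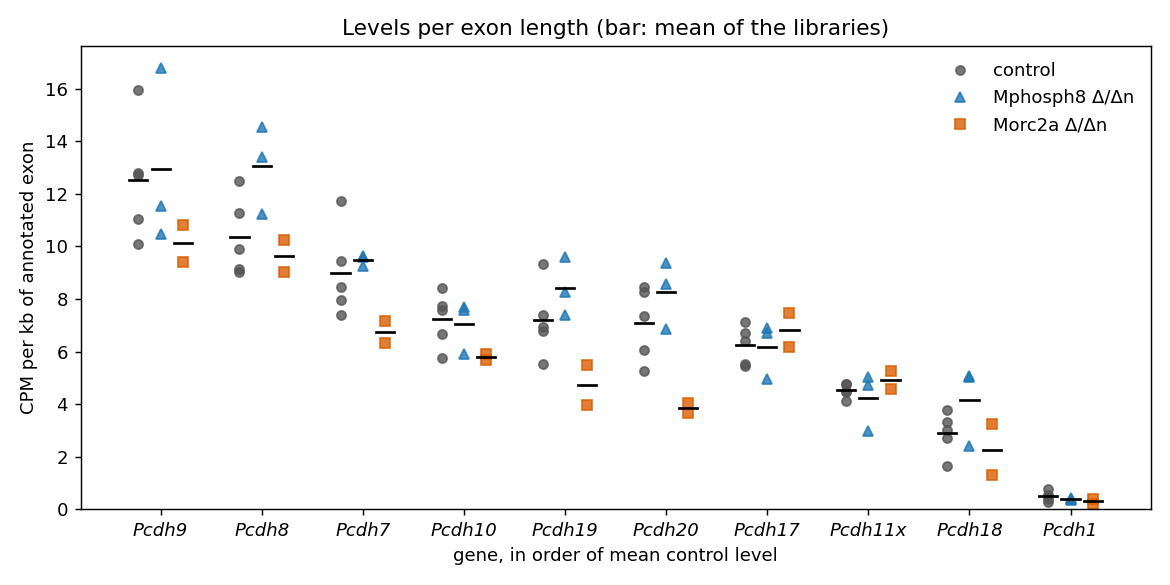
CPM per kb of annotated exon (vertical axis) for the 10 genes (horizontal axis, in order of the mean control level), with a point per library and a bar at the mean of 5 control, 3 Mphosph8Δ/Δn and 2 Morc2aΔ/Δn libraries. Pcdh9 and Pcdh8 are the highest in control at 12.5 and 10.4 CPM per kb, Pcdh1 is the lowest at 0.50, and Pcdh20 and Pcdh19 stand lower in Morc2aΔ/Δn libraries than in control.

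In Mphosph8Δ/Δn nuclei Pcdh8 and Pcdh9 led at 13.1 ± 1.68 and 12.9 ± 3.38 CPM per kb (SD, n = 3) with overlapping ranges. In Morc2aΔ/Δn nuclei Pcdh9 and Pcdh8 also led, at 10.1 ± 1.00 and 9.63 ± 0.872 CPM per kb (SD, n = 2), with overlapping ranges. Pcdh17 and Pcdh7 followed at 6.82 ± 0.923 and 6.76 ± 0.596 CPM per kb, also with overlapping ranges, and Pcdh19 and Pcdh20 stood at 4.73 ± 1.08 and 3.85 ± 0.285 CPM per kb, after Pcdh10 and Pcdh11x. Spread between the control libraries differed between the genes. The coefficient of variation was 6.18% for Pcdh11x, 11.7% for Pcdh17, between 14.4% and 19.6% for Pcdh10, Pcdh8, Pcdh9, Pcdh7, Pcdh19 and Pcdh20, 27.8% for Pcdh18 and 38.4% for Pcdh1. The median over 10785 genes of at least 10 CPM in control was 16.3%.

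In Mphosph8Δ/Δn nuclei no delta protocadherin passed the test. A gene counted as called where edgeR's quasi-likelihood test gave a Benjamini-Hochberg adjusted p below 0.05 with more than a 2-fold change. This held for 0 of the 10, where 0.0969% of 18573 genes tested were called, and 0 of the 10 had an unadjusted p below 0.05, against 5.67% of all genes. DESeq2 also called 0 of the 10 (0.237% of the 18180 genes to which it gave an adjusted p). Log2 fold changes were above 0 for 6 genes and below 0 for 4 (51.3% of all genes were below 0), with a median of 0.063 against -0.0090 over all genes tested. The 95% interval lay wholly below a log2 fold change of 1 for 9 of the 10 (66.8% of all genes with an interval), Pcdh18 excepted, and wholly between -1 and 1 for 8 (55.8%), Pcdh1 and Pcdh18 excepted. 0 of the 10 had all Mphosph8Δ/Δn libraries above every control (2.31% of all genes) and 0 had all below (2.26%).

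In Morc2aΔ/Δn nuclei Pcdh20, Pcdh19 and Pcdh7 were lower in both libraries than in every control, but none of the 10 passed the test. edgeR called 0 of the 10, against 0.0592% of 18573 genes. DESeq2 called 0 of the 9 to which it gave an adjusted p, all but Pcdh1, against 0.496% of the 10288 genes with one. An unadjusted p below 0.05 was found for 3 of the 10 (10.7% of all genes), all with a lower level (6.4%). Both libraries lay below every control for the same 3 (7.8% of all genes), and above every control for 0 (7.59%). Log2 fold changes were below 0 for 8 of the 10 (51.3% of all genes), with a median of -0.33 against -0.014 over all genes tested. All 10 intervals lay wholly below a log2 fold change of 1 (63.6% of all genes with an interval), and 6 lay wholly between -1 and 1 (48.5%), while those of Pcdh20, Pcdh19, Pcdh18 and Pcdh1 also held values below -1. Both comparisons use the same 5 controls.

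**Figure D2:**
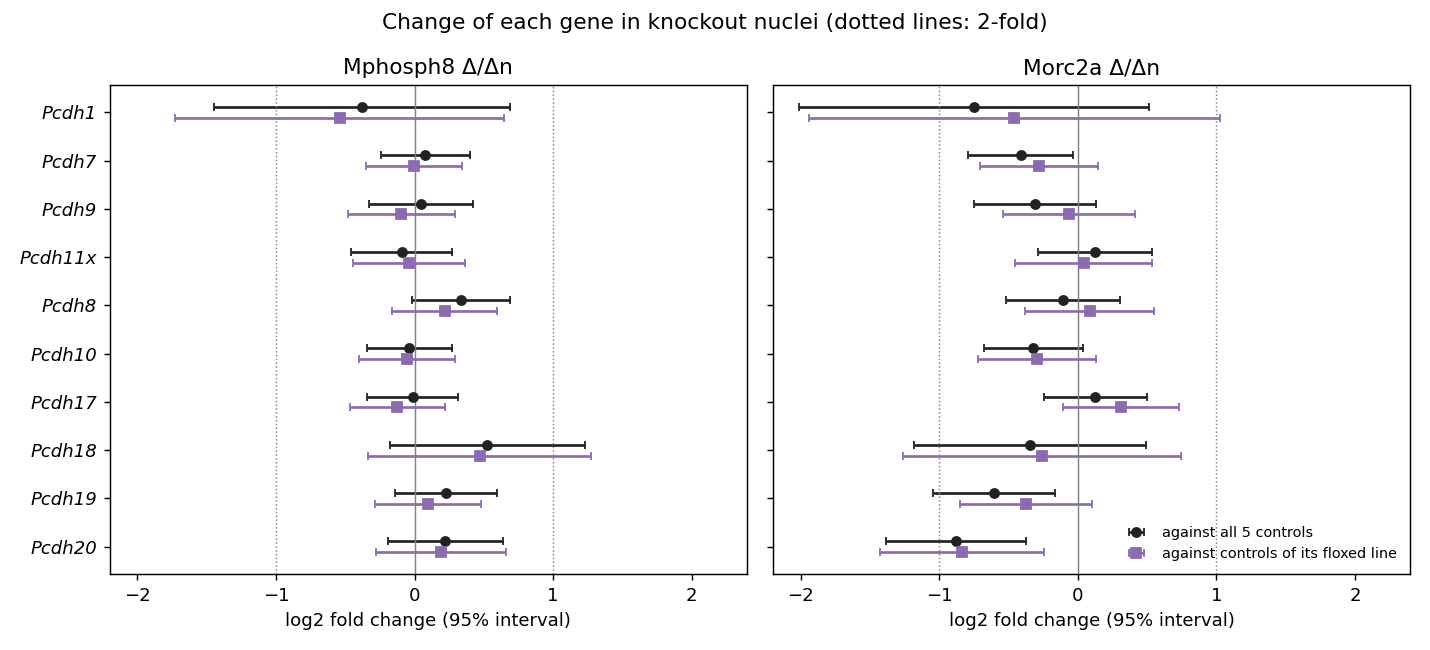
Log2 fold change of each gene (horizontal axis) with its 95% interval from edgeR's quasi-likelihood fit, for Mphosph8Δ/Δn (left) and Morc2aΔ/Δn (right), against all 5 controls (circles) and against controls of the same floxed line (squares), with dotted lines at a 2-fold change. Values of Mphosph8Δ/Δn lie around 0, and those of Pcdh20 in Morc2aΔ/Δn lie at -0.88 and -0.84 with intervals below 0.

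Among the delta-1 genes, Pcdh7 (ENSMUSG00000029108, chr5:57717967-58133230, plus strand), which binds the phosphatase inhibitor SET and acts in axon elongation, was at 78.3, 124, 100.1, 89.6 and 84.4 CPM in control replicates 1 to 5. It was at 98.1, 102 and 102 CPM in the Mphosph8Δ/Δn libraries and at 67.2 and 76.1 CPM in the Morc2aΔ/Δn libraries. The Mphosph8Δ/Δn values lay inside the control range, and both Morc2aΔ/Δn values lay below it by a small margin. The log2 fold change was 0.079 ± 0.15 (SE) in Mphosph8Δ/Δn (edgeR adjusted p = 0.997) and -0.41 ± 0.18 in Morc2aΔ/Δn (edgeR adjusted p = 0.415). An antisense gene, 4932441J04Rik, shares 21.1% of the exonic bases of Pcdh7, and since the strand setting of the counting is not given in the sources used here, reads of both cannot be told apart.

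Pcdh9 (ENSMUSG00000055421, chr14:93013410-93890679, minus strand), the longest of the 10 and a gene of cortical circuits, ranged from 68.5 to 108 CPM in control, from 71.1 to 114 CPM in Mphosph8Δ/Δn and from 63.8 to 73.5 CPM in Morc2aΔ/Δn libraries. These ranges overlapped, and the log2 fold changes were 0.047 ± 0.18 and -0.31 ± 0.21 (SE). Pcdh11x (ENSMUSG00000034755, chrX:120290259-120910619, plus strand), an X-linked gene expressed in developing and adult cortex, was the steadiest in control at 63.1 ± 3.90 CPM (SD, n = 5). A single Mphosph8Δ/Δn library, replicate 2, was low at 41.3 CPM, beside 70.3 and 65.8 CPM in the others, and the Morc2aΔ/Δn libraries were at 73.6 and 63.6 CPM. The log2 fold changes of Pcdh11x were -0.093 ± 0.17 and 0.12 ± 0.20 (SE). Pcdh1 (ENSMUSG00000051375, chr18:38185914-38212053, minus strand), best known as an adhesion protein of airway epithelium, rested on 17 to 74 counts a library. It was at 4.40 ± 1.69 CPM in control, 3.38 ± 0.421 CPM in Mphosph8Δ/Δn and 2.61 ± 1.13 CPM in Morc2aΔ/Δn libraries (SD, n = 5, 3 and 2), and its intervals, from -1.45 to 0.69 and from -2.01 to 0.51 on the log2 scale, were the widest of the 10. A 2-fold lower level of Pcdh1 lies inside both intervals, and the log2 fold change in Morc2aΔ/Δn was -0.36 without Morc2aΔ/Δn replicate 1 and -1.28 without replicate 2.

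Among the delta-2 genes, Pcdh8 (ENSMUSG00000036422, chr14:79766775-79771312, minus strand), also named arcadlin, is induced by neuronal activity and takes N-cadherin off the synaptic surface. It was at 45.0, 51.2, 56.7, 41.0 and 41.4 CPM in control replicates 1 to 5, at 66.0, 60.9 and 51.0 CPM in Mphosph8Δ/Δn and at 40.9 and 46.5 CPM in Morc2aΔ/Δn libraries. Mphosph8Δ/Δn replicates 1 and 2 lay above every control and replicate 3 inside the control range. The log2 fold change in Mphosph8Δ/Δn was 0.33 ± 0.17 (SE), with an interval from -0.021 to 0.69 and an edgeR adjusted p of 0.895, and in Morc2aΔ/Δn it was -0.11 ± 0.20. Replicates 1 and 2 are the Mphosph8Δ/Δn libraries with high granule cell markers, and without them and control replicate 4 the log2 fold change of Pcdh8 in Mphosph8Δ/Δn was 0.055. Of its exonic bases, 9.61% are shared with the antisense gene Gm9748. The summed level of 7 genes of recent activity, the class in which Pcdh8 was first described, ranged from 405 to 1224 CPM in control, from 367 to 622 CPM in Mphosph8Δ/Δn and from 513 to 608 CPM in Morc2aΔ/Δn libraries.

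Pcdh18 (ENSMUSG00000037892, chr3:49743296-49757325, minus strand), whose tail binds the reelin adaptor Dab1, was at 16.2, 17.8, 14.5, 20.2 and 8.76 CPM in control replicates 1 to 5. It was at 27.1, 27.0 and 12.9 CPM in the Mphosph8Δ/Δn libraries and at 7.03 and 17.4 CPM in the Morc2aΔ/Δn libraries. The 3 highest values of Pcdh18 stood in the 3 libraries with the most granule cell markers, Mphosph8Δ/Δn replicates 1 and 2 and control replicate 4. The log2 fold change in Mphosph8Δ/Δn was 0.53 ± 0.33 (SE, edgeR adjusted p = 0.951) with all libraries and -0.16 (edgeR adjusted p = 0.95) without these 3. The part of granule cells in these values was not tested. In bulk nuclei more cells of a type and more RNA per cell cannot be told apart. The log2 fold change in Morc2aΔ/Δn was -0.35 ± 0.40 (SE), and it was 0.16 without Morc2aΔ/Δn replicate 1.

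Pcdh10 (ENSMUSG00000049100, chr3:45378398-45435623, plus strand), which recruits the WAVE complex in growing striatal axons and takes part in synapse elimination, was at 91.6, 123, 134, 106 and 120.5 CPM in control replicates 1 to 5. It was at 93.7, 123 and 120.2 CPM in the Mphosph8Δ/Δn libraries and at 93.7 and 90.4 CPM in the Morc2aΔ/Δn libraries. Of the Morc2aΔ/Δn values, replicate 1 lay inside the control range and replicate 2 just below control replicate 1, the lowest control, and the log2 fold changes were -0.037 ± 0.15 and -0.32 ± 0.17 (SE). Pcdh17 (ENSMUSG00000035566, chr14:84443563-84539002, plus strand), which also acts through WAVE and marks corticobasal ganglia pathways, was at 83.2, 92.5, 87.1, 71.8 and 71.0 CPM in control replicates 1 to 5. It was at 87.3, 89.7 and 64.3 CPM in the Mphosph8Δ/Δn libraries and at 97.1 and 80.2 CPM in the Morc2aΔ/Δn libraries, so that the groups overlapped. Its log2 fold changes were -0.013 ± 0.15 and 0.13 ± 0.18 (SE). Within the delta-2 genes, Pcdh17 was the gene with a value above 0 in Morc2aΔ/Δn nuclei, and the other 4 were below 0.

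Pcdh19 (ENSMUSG00000051323, chrX:133582860-133688987, minus strand), a partner of N-cadherin whose mutation causes an X-linked epilepsy, was at 72.7, 97.6, 77.2, 57.8 and 71.0 CPM in control replicates 1 to 5. It was at 86.4, 77.4 and 100.5 CPM in the Mphosph8Δ/Δn libraries and at 41.5 and 57.5 CPM in the Morc2aΔ/Δn libraries. The Mphosph8Δ/Δn values overlapped with control, and of the Morc2aΔ/Δn values replicate 1 lay well below the lowest control and replicate 2 just below it. The mean was 75.3 ± 14.4 CPM in control (SD, n = 5) and 49.5 ± 11.3 CPM in Morc2aΔ/Δn (SD, n = 2). The log2 fold change was 0.23 ± 0.17 (SE) in Mphosph8Δ/Δn (edgeR adjusted p = 0.975) and -0.60 ± 0.21 in Morc2aΔ/Δn, with an interval from -1.04 to -0.16 (edgeR adjusted p = 0.301). The latter was -0.38 without Morc2aΔ/Δn replicate 1 and -0.86 without replicate 2.

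Pcdh20 (ENSMUSG00000050505, chr14:88464743-88471396, minus strand), which helps to place neurons of the cortical granular layer, had the lowest p of the 10 genes in Morc2aΔ/Δn nuclei. It was at 33.3, 40.4, 45.3, 46.4 and 28.8 CPM in control replicates 1 to 5, at 51.4, 37.7 and 47.0 CPM in the Mphosph8Δ/Δn libraries and at 22.3 and 20.04 CPM in the Morc2aΔ/Δn libraries. Both Morc2aΔ/Δn values lay below every other library, and the Mphosph8Δ/Δn values overlapped with control. The mean was 38.9 ± 7.62 CPM in control (SD, n = 5), 45.4 ± 7.01 CPM in Mphosph8Δ/Δn (SD, n = 3) and 21.1 ± 1.57 CPM in Morc2aΔ/Δn (SD, n = 2). The log2 fold change in Morc2aΔ/Δn was -0.88 ± 0.24 (SE), with an interval from -1.39 to -0.37 (edgeR adjusted p = 0.183), and in Mphosph8Δ/Δn it was 0.22 ± 0.20 (edgeR adjusted p = 0.987). With DESeq2 the log2 fold change in Morc2aΔ/Δn was also -0.88 and the adjusted p was 0.0197, with a fold below the 2-fold limit of a call. Without that limit DESeq2 found 2.34% of 10288 genes lower at an adjusted p below 0.05, and Pcdh20 was the only one of the 10 among them. Pcdh20 shares no exonic base with another annotated gene.

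**Figure D3:**
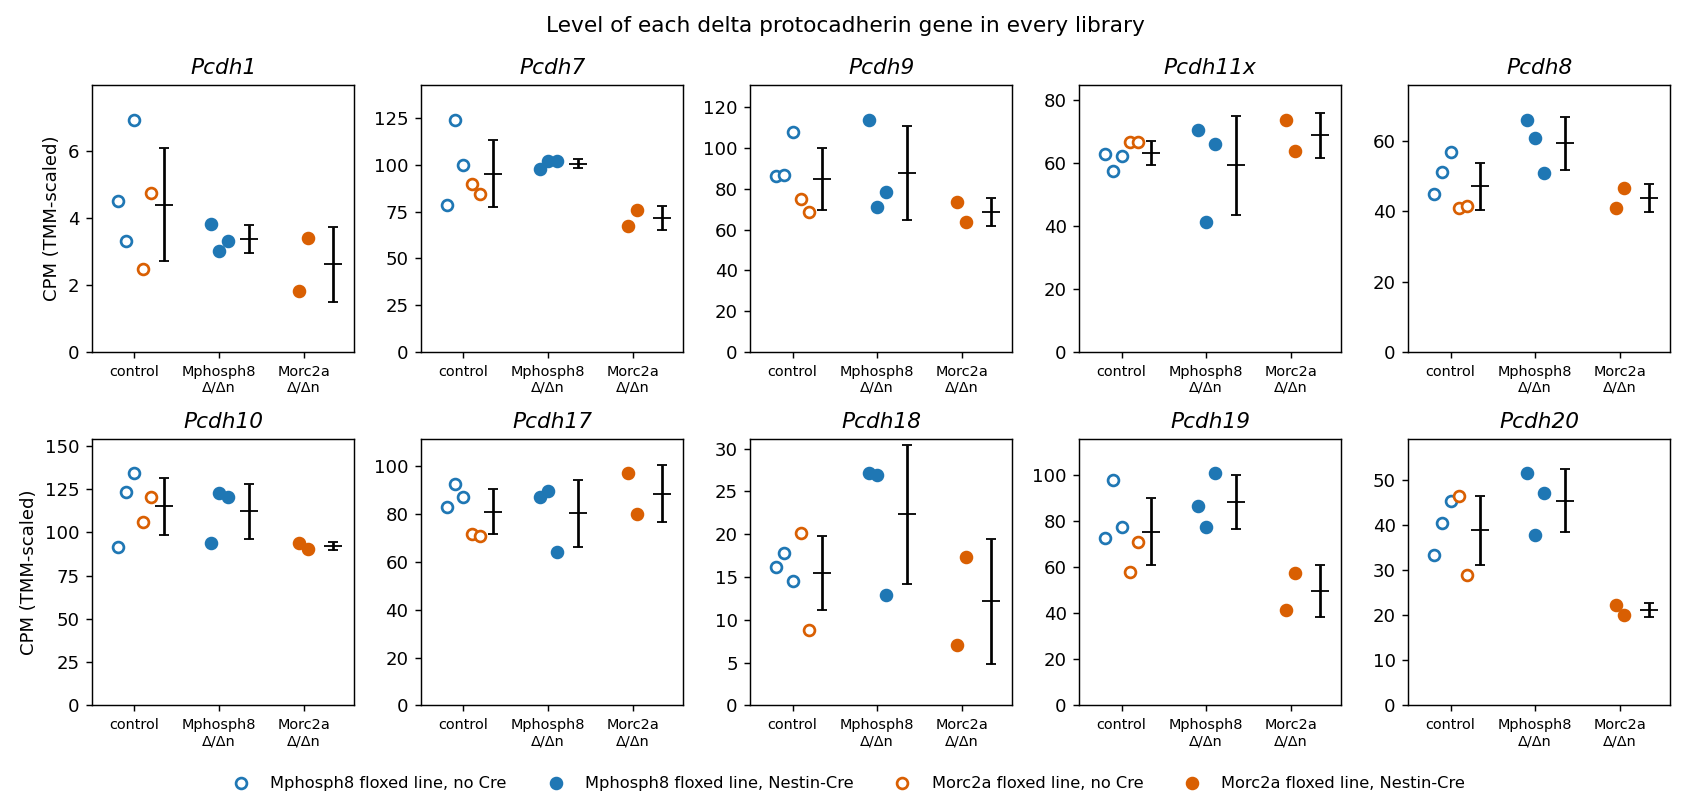
CPM of each gene (vertical axes from 0) in every library, open circles for control and filled circles for knockout libraries, blue for the Mphosph8 and orange for the Morc2a floxed line, with bars at the mean ± SD of 5, 3 and 2 libraries. For Pcdh7, Pcdh19 and Pcdh20 both Morc2aΔ/Δn points lie below every control, and for Pcdh18 Mphosph8Δ/Δn replicates 1 and 2 lie at 27.1 and 27.0 CPM above every control.

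Since the 5 controls came from both floxed lines, each knockout was also compared with controls of its own line, in a fit of 4 groups. Between the control lines themselves 0 of the 10 genes were called (0.129% of all genes), and 9 of the 10 had higher fitted values in the Mphosph8 floxed controls, with log2 differences up to 0.45 in Pcdh1 and 0.39 in Pcdh9. Against Mphosph8 floxed controls 0 of the 10 were called in Mphosph8Δ/Δn (0.0538% of all genes). Against Morc2a floxed controls 0 were called in Morc2aΔ/Δn (0.0538% of all genes), and the log2 fold change was -0.84 ± 0.28 (SE) for Pcdh20 (edgeR adjusted p = 0.369), -0.38 ± 0.23 for Pcdh19 (edgeR adjusted p = 0.663) and -0.28 ± 0.20 for Pcdh7 (edgeR adjusted p = 0.736). The value of Pcdh20 thus stayed near that with all controls, and the interval of Pcdh19 and of Pcdh7 reached above 0. Both Morc2aΔ/Δn libraries lay below both controls of their line for Pcdh7, Pcdh10, Pcdh19 and Pcdh20 (17.9% of all genes) and above both for Pcdh17 (18.1%).

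Whether the knockouts differed from each other in effect, each against its own line, was tested as an interaction. It was called for 0 of the 10 and for 0% of all genes, while 7.95% of all genes and 1 of the 10, Pcdh20, had an unadjusted p below 0.05. For Pcdh20 the effect in Mphosph8Δ/Δn minus that in Morc2aΔ/Δn was 1.03 ± 0.36 on the log2 scale (SE), with an interval from 0.27 to 1.78 and an edgeR adjusted p of 0.499. For Pcdh19 it was 0.47 ± 0.29 and for Pcdh17 -0.44 ± 0.26, with intervals that held 0.

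The summed level of the clustered genes was higher in every knockout library than in every control, and that of the delta genes was not. The CPM of the 58 clustered genes summed to 394 ± 77.9 in control, 1075 ± 124 in Mphosph8Δ/Δn and 730 ± 86.9 in Morc2aΔ/Δn libraries (SD, n = 5, 3 and 2). The 10 delta genes summed to 621 ± 66.4, 659 ± 34.7 and 519 ± 0.281 CPM in the same groups. The clustered sum was 427, 448 and 475 CPM in control replicates 1 to 3, of the Mphosph8 floxed line. It was 312 and 311 CPM in control replicates 4 and 5, of the Morc2a floxed line. In Morc2aΔ/Δn both sums of delta genes, 518.6 and 519.0 CPM, lay below the lowest control at 566 CPM. Clustered CPM per CPM of delta genes were between 0.540 and 0.743 in control, between 1.53 and 1.74 in Mphosph8Δ/Δn and between 1.29 and 1.53 in Morc2aΔ/Δn libraries. The delta genes thus held the larger share of these counts in each control library and the smaller share in each knockout library. These sums were not divided by exon length, so that they are shares of counts and not of transcripts. Pcdh1 lies on the chromosome of the array, 344041 bp beyond its end at position 37841873, and was not called, with log2 fold changes of -0.38 and -0.75 and the wide intervals given above.

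Summed neuronal markers were also lower in both Morc2aΔ/Δn libraries than in every control, and their part in the values of Pcdh20, Pcdh19 and Pcdh7 was not tested. The sum of 7 general neuronal markers was 3485 and 3024 CPM in the Morc2aΔ/Δn libraries against 4074 to 4718 CPM in control and 4086 to 4377 CPM in Mphosph8Δ/Δn libraries. Log2 fold changes were below 0 for 6 of the 7, with a median of -0.41, and 0 of the 7 were called. The exception was Rbfox3, which encodes NeuN, the protein used for sorting. It was at 280 and 251 CPM against 150.0 to 274 CPM in control (log2 fold change 0.19 ± 0.19, SE). The sum of 7 inhibitory markers was 1423 and 1160 CPM against 1512 to 1910 CPM in control, with all 7 below 0. That of 5 thalamic markers was 203 and 204 CPM against 237 to 267 CPM, with 4 below 0. The remaining thalamic gene, Lhx2, went the other way, at 19.6 and 24.3 CPM against 11.9 to 17.5 CPM in control (log2 fold change 0.54 ± 0.30, SE). Excitatory markers were at 846 and 485 CPM against 760 to 937 CPM in control, low in replicate 2 only. Oligodendrocyte markers were at 672 and 545 CPM against 739 to 964 CPM. Granule cell markers summed to 79.9 and 80.5 CPM, just below the lowest control at 80.6 CPM. Of these 7 genes, Gabra6 and Zic2 were at 0 in Morc2aΔ/Δn replicate 2. Zic2 was also at 0 in every control, and Gabra6 was at 103 CPM in control replicate 4 and at 2.26 to 5.71 CPM in the other controls. In the Mphosph8Δ/Δn libraries the neuronal, inhibitory and thalamic sums overlapped with control. The sum of 6 striatal markers lay below every control in both knockouts. It was 960 to 1257 CPM in Mphosph8Δ/Δn and 1005 and 1277 CPM in Morc2aΔ/Δn libraries, against 1293 to 1506 CPM in control. Of 5 striatal genes tested, 5 were below 0 in Mphosph8Δ/Δn and 4 in Morc2aΔ/Δn, and 0 were called. Their part in the values of the delta genes was not tested.

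**Figure D4:**
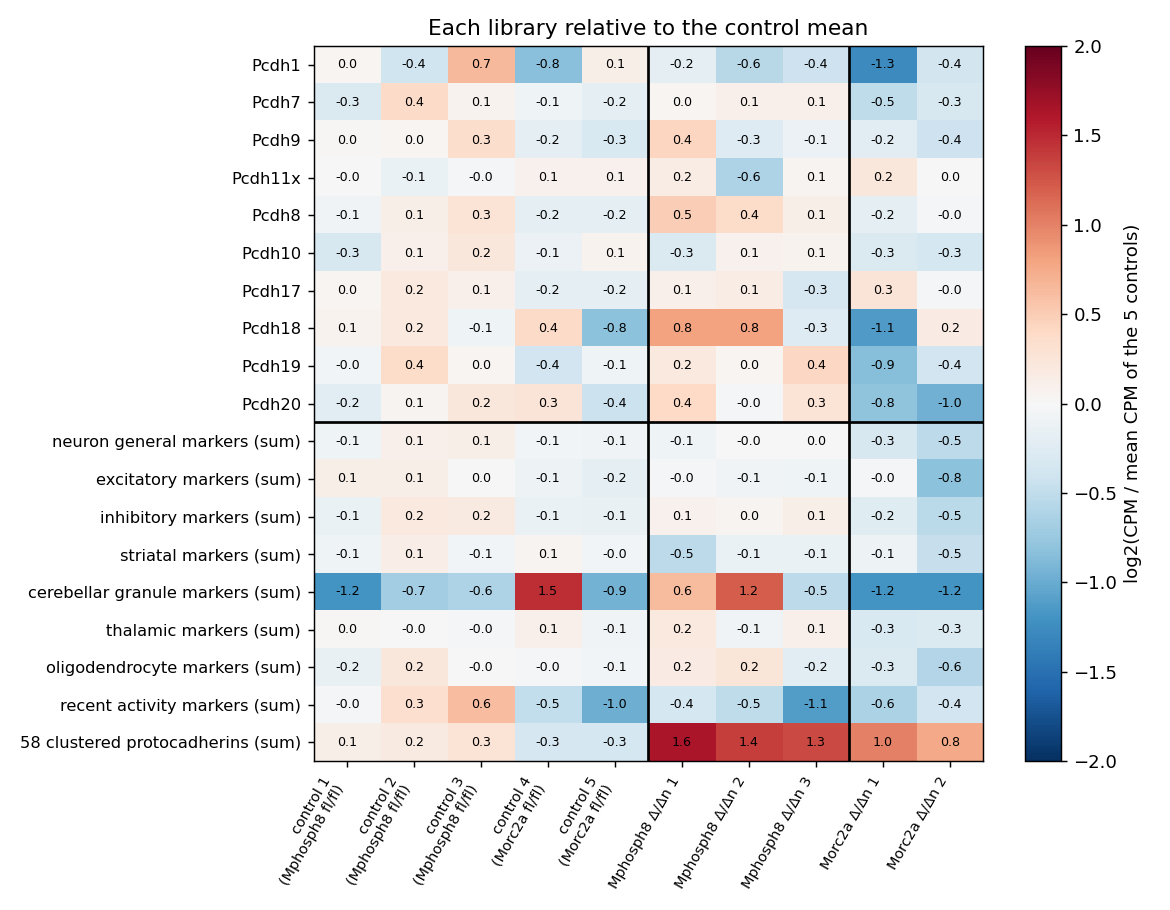
Log2 of the CPM of each library over the mean of the 5 controls (colour and printed value) for the 10 genes, above the line, and for summed markers and the summed 58 clustered protocadherins, below it, with libraries in columns. Pcdh20 stands at -0.8 and -1.0 in Morc2aΔ/Δn libraries, where general neuronal markers stand at -0.3 and -0.5, and Pcdh18 stands at 0.8 in the Mphosph8Δ/Δn libraries in which granule cell markers stand at 0.6 and 1.2.

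Other cadherins and partners of the delta protocadherins were given the same tests, and 0 genes were called in any of these lists in either comparison. Of the further protocadherins outside the cluster, Pcdh12, an endothelial gene, had too few counts to be tested, and Pcdh15 of hair cell links and Cdhr1 of photoreceptors were tested, with log2 fold changes in Morc2aΔ/Δn of 0.31 ± 0.14 and -0.21 ± 0.26 (SE). Of 19 classical cadherins 16 were tested, all but Cdh1, Cdh3 and Cdh5. In Mphosph8Δ/Δn 8 were above and 8 below 0, with a median of 0.00099 (lowest adjusted p in Cdh4, 0.45 ± 0.22, edgeR adjusted p = 0.894). In Morc2aΔ/Δn 4 were above and 12 below 0, with a median of -0.17 (lowest adjusted p in Cdh12, -0.89 ± 0.32, edgeR adjusted p = 0.316). Of 12 giant, seven-pass and calsyntenin genes, 7 were below 0 in Mphosph8Δ/Δn and 8 in Morc2aΔ/Δn, with medians of -0.092 and -0.17. In Mphosph8Δ/Δn Dchs2, at -1.10 ± 0.69, and Fat2, at 1.66 ± 1.06, shared the lowest adjusted p of the list (edgeR adjusted p = 0.951), and in Morc2aΔ/Δn Clstn2 had it, at -0.45 ± 0.22 (edgeR adjusted p = 0.485). Fat2 was high only in the libraries with high granule cell markers. It was at 58.7 CPM in control replicate 4, at 46.2 and 75.6 CPM in Mphosph8Δ/Δn replicates 1 and 2, and at most 3.30 CPM elsewhere.

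The WAVE complex and Rac1, through which Pcdh10, Pcdh17 and Pcdh19 act on actin, were represented by 10 genes, all tested. In Mphosph8Δ/Δn 4 were above and 6 below 0, with a median of -0.060, and in Morc2aΔ/Δn 5 were above and 5 below 0, with a median of -0.070. Cyfip2, a WAVE subunit, had the lowest adjusted p of the list in Morc2aΔ/Δn, with a log2 fold change of -0.53 ± 0.14 (edgeR adjusted p = 0.166), and Brk1 had it in Mphosph8Δ/Δn, with -0.21 ± 0.11 (edgeR adjusted p = 0.900). A further list held 17 other partners and effectors. It included protein phosphatase 1 for delta-1 genes, the phosphatase inhibitor SET for Pcdh7 and Dab1 for Pcdh18. It also included Taok2 and p38 kinase for Pcdh8 and the Mef2 and Mdm2 pathway for Pcdh10. Of the 17, 13 were below 0 in Mphosph8Δ/Δn and 11 in Morc2aΔ/Δn. The lowest adjusted p values were those of Smad3 in Mphosph8Δ/Δn, at -0.46 ± 0.16 (edgeR adjusted p = 0.767), and of Ctnnb1, which encodes beta-catenin, in Morc2aΔ/Δn, at -0.49 ± 0.14 (edgeR adjusted p = 0.220).

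For members with a mean of at least 10 CPM, the genes with the most similar profile over the 10 libraries were found among 10835 genes by Pearson correlation of log2 CPM, as a description, since the libraries share groups, lines and cell makeup. Pcdh20 was most like Rad21 (r = 0.956) and Gpm6a (r = 0.954). Pcdh19 was most like C530043K16Rik (r = 0.955) and Atrnl1 (r = 0.951). Pcdh18 was most like Emb (r = 0.956) and Dhx38 (r = 0.949), Pcdh8 most like Tspyl5 (r = 0.912) and Unc13c (r = 0.899), and Pcdh10 most like Itgav (r = 0.911) and Hs3st2 (r = 0.907). Pcdh9 was most like Lrrc58 (r = 0.930) and Rab3c (r = 0.929), Pcdh11x most like Nupl2 (r = 0.940) and Ldb3 (r = 0.940), and Pcdh17 most like Plin3 (r = 0.935) and Hdlbp (r = 0.922). None of the genes named was itself one of the 10.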

How the data were processed

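RNA-seq counts of 10 libraries of NeuN+ nuclei were used. The deposited files hold read counts per gene, made by the authors from reads trimmed with Trim Galore 0.5.0, filtered with Bowtie2 2.3.4.1, aligned to GRCm38 with STAR and counted in genes with featureCounts of Subread 1.6.2, per the submitters' processing notes and the study's methods, without normalization. Strand setting and treatment of overlapping genes are not given in the sources used here. Symbols and exons came from GENCODE M21, which matched 54409 of 54532 identifiers, and promoter windows from RefSeq, for 8 of the 10 genes.

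In R 4.3.3 with edgeR 4.0.16, genes were filtered by filterByExpr on 3 groups (18573 kept) and scaled by TMM. All 10 libraries entered 1 quasi-likelihood fit (common dispersion 0.141), with Benjamini-Hochberg adjustment over all genes tested. Calls needed an adjusted p below 0.05 with a fold above 2. A fit of 4 groups gave same-line contrasts and their difference. SE is the absolute log2 fold change over the root of F. CPM per kb used the union of annotated exons. DESeq2 1.42.0, median-of-ratios scaling, no filter, the compared pair alone, a replicate block, no minimum fold and leaving out each library were the alternatives. Leaving out 3 libraries with high granule cell markers was chosen after seeing the data. The script was tested on simulated data.

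The 10 genes and the lists were chosen with earlier results of these data known. Named genes were the 10, the targeted genes, Rbfox3, the gene of lowest adjusted p in each list, marker genes at 0, and the 2 genes most like each member, which for Pcdh7 are not reported here. Mbp and Lhx2 were named after their values were seen. Replicate numbers were not taken to pair libraries, because residuals of the 7 same-numbered pairs correlated between -0.125 and 0.129, and those of other pairs between -0.145 and 0.125. No same-numbered pair joins a Morc2aΔ/Δn library to a control of its own line, so that the check does not cover pairing there. The study's methods state that littermates matched for age and sex were compared. The sample labels do not name litters, and litter was not in the fits. Depth was between 6686038 and 10764555 counts per library. Between replicates, chi-square over its degrees of freedom was 9.55 to 38.4 over 14 pairs. It was pooled over genes above a minimum count, and over these the spread between libraries exceeded that of counting. It does not measure the part of counting in a single gene with few counts, such as Pcdh1.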

Additional observations from a re-analysis of the deposited data

Results flagged for a closer look

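The summed level of 7 cerebellar granule cell markers in control replicate 4 was 510 CPM, and the next control library was at 119 CPM. The gap was 0.910 of the whole range of the 5 controls, beyond the Dixon limit for 5 values. It was the 1 value found beyond that limit in 26 sets of control libraries tested, which held the 10 delta protocadherins and summed lists, and chance alone gives about 1 in 20. No delta protocadherin had such a value. Pcdh18 was at 20.2 CPM in that library, its highest control value, and Pcdh20 at 46.4 CPM, also its highest control value.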

How the results depend on the processing

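The number of the 10 delta protocadherins called was 0 in both comparisons under all alternatives run. Of 340 values of single members over 17 alternative fits, 19 changed sign, to log2 fold changes of at most 0.18 in size under the alternative. Against controls of the same line, Mphosph8Δ/Δn values turned to -0.00303 for Pcdh7 and -0.096 for Pcdh9, and the Morc2aΔ/Δn value of Pcdh8 to 0.085. Without the 3 libraries with high granule cell markers, Mphosph8Δ/Δn values turned to -0.17 for Pcdh9, 0.070 for Pcdh11x, 0.020 for Pcdh10 and -0.16 for Pcdh18. With each library left out in turn, Mphosph8Δ/Δn values ranged from -0.092 to 0.13 for Pcdh17, -0.11 to 0.080 for Pcdh10, -0.18 to 0.19 for Pcdh9 and -0.23 to 0.12 for Pcdh11x, and Morc2aΔ/Δn values from -0.014 to 0.25 for Pcdh17 and -1.15 to 0.16 for Pcdh18. With each library left out in turn, the value of Pcdh20 in Morc2aΔ/Δn ranged from -0.98 to -0.81 (edgeR adjusted p from 0.0885 to 0.544), and with no filter it was -0.87 (edgeR adjusted p = 0.0686).

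With the replicate number as a block, the values turned to -0.11 for Pcdh9 in Mphosph8Δ/Δn and -0.066 for Pcdh17 in Morc2aΔ/Δn, and 46 of all genes were called in Morc2aΔ/Δn. The block changed no call of a delta protocadherin.

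Counts over all genes moved more than the members. In Mphosph8Δ/Δn the 18 calls became 87 with no filter, 10 with same-line controls, 43 with DESeq2, 1 without the 3 libraries, and 6 to 21 with each library left out. In Morc2aΔ/Δn the 11 calls became 98 with no filter, 6 with the compared pair alone, 51 with DESeq2, and 3 to 26 with each library left out, the fewest without Morc2aΔ/Δn replicate 2. Fewer calls by over 1.5 times came in both comparisons without control replicate 1 and without each Mphosph8Δ/Δn library, and in Morc2aΔ/Δn also without control replicate 2, and more came there without control replicate 4, control replicate 5 and Morc2aΔ/Δn replicate 1. The cause was not tested. With the longest transcript as length, control levels were 0.812 CPM per kb for Pcdh1, 10.9 for Pcdh7, 6.93 for Pcdh11x, 14.0 for Pcdh10 and 7.08 for Pcdh17.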
